A study of Arabidopsis thaliana with 3 samples.

Results

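The genes described here are the plastid-encoded ndh genes of Arabidopsis thaliana, which encode subunits of the chloroplast NADH dehydrogenase-like complex (NDH). Members were the probe sets whose single gene symbol is ndhA or ndhC to ndhK. There were 10 of them, 1 for each gene, among 22746 probe sets that are not array controls. The probe set for ndhB matches both copies of that duplicated gene and was left out.

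The study set young whole plants of the accession Col-0 that were flooded with 1 mM 2,4-D, dissolved in water at neutral pH, for 1 hour against plants flooded with distilled water for the same time. The 2,4-D group held 2 arrays and the water group held 1 array. All plants were grown on MS medium with sucrose to the stage of a few rosette leaves and had been kept in cold and darkness for a period, per the labels. Nothing in the labels tells if the 2 treated samples are separate plates, so the spread between these samples may be technical. The p-values and standard errors of the main fit measure only that spread, as shared over probe sets of similar signal, not each gene's own. 2,4-D (2,4-dichlorophenoxyacetic acid) is a synthetic auxin, applied here at a herbicidal level, and total RNA of each sample was hybridised to an Affymetrix ATH1 array.

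NDH sits in the thylakoid membrane, is related to respiratory complex I, and passes electrons from ferredoxin to plastoquinone. It takes part in cyclic electron flow around photosystem I and in chlororespiration. Its subunits are encoded partly in the plastid genome and partly in the nucleus. The plastid genes lie in transcription units that are read as long transcripts, which are then cut, spliced and edited by nuclear-encoded proteins. Most plastid mRNAs carry no long poly(A) tail, and the priming of the labelling reaction is one step not given in the sources used here.

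With 2,4-D, transcripts of 5 ndh genes rose: ndhA, ndhD, ndhG, ndhI and ndhJ. Apart from ndhG these were between 1.51-fold and 1.75-fold higher, and ndhG, not measurable above dim controls on the water array, was at least 3.21-fold higher. ndhE, ndhK and ndhC did not pass the test, and ndhF and ndhH were too dim to be tested. By limma, 5 of the 8 tested members were higher and 0 lower at an adjusted p under 0.05, while 6 were higher and 0 lower at an unadjusted p under 0.05. Among all 13648 tested probe sets, 10.8% were called higher and 10.5% lower, and 15.8% and 16.8% were so at an unadjusted p under 0.05. Without the intensity trend in the variance, or without the filter on low signal, ndhG was the only member called, 1 of 8 and 1 of 10. Of all probe sets tested under those settings, 6.11% and 4.24% were called higher. The median log2 change over all 10 members was 0.69, against -0.14 over all 22746 probe sets and -0.04 over those tested. With dim signals raised to the level of the dim controls, these medians were 0.63, -0.29 and -0.04.

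The values are MAS5 signals, which are intensities on a linear scale, and a log2 change is the mean log2 signal with 2,4-D minus the log2 signal with water. Median signals were 38.7 and 38.5 on the 2,4-D arrays and 41.9 on the water array. Low signals were judged against 27 control probe sets for bacterial genes, dim on each array, of which the brightest was 10.7 on 2,4-D replicate 1, 8.37 on 2,4-D replicate 2 and 13.9 on the water array. The spiked bioB control had signals of 102 and 79.8 with 2,4-D and 228 with water, and bioC had 303 and 215 with 2,4-D and 621 with water. The brighter controls were closer: bioD had 871 and 735 with 2,4-D and 1061 with water, and cre had 3601 and 4122 with 2,4-D and 4396 with water. The part of such differences between arrays in the results below was not tested. An exact permutation test of 2 arrays against 1 cannot give a p below 0.333, so the tests rest on limma's variance, which is shared over probe sets. With the arrays scaled to the same median, the median change over all tested probe sets was 0.07, and 67.2% of all calls were higher, against 50.7% without it. The changes of the members moved up by the same shift, 0.12, and relative to it stayed as given. In whole plants, more plastid-bearing cells and more transcript per cell cannot be told apart.

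**Figure D1:**
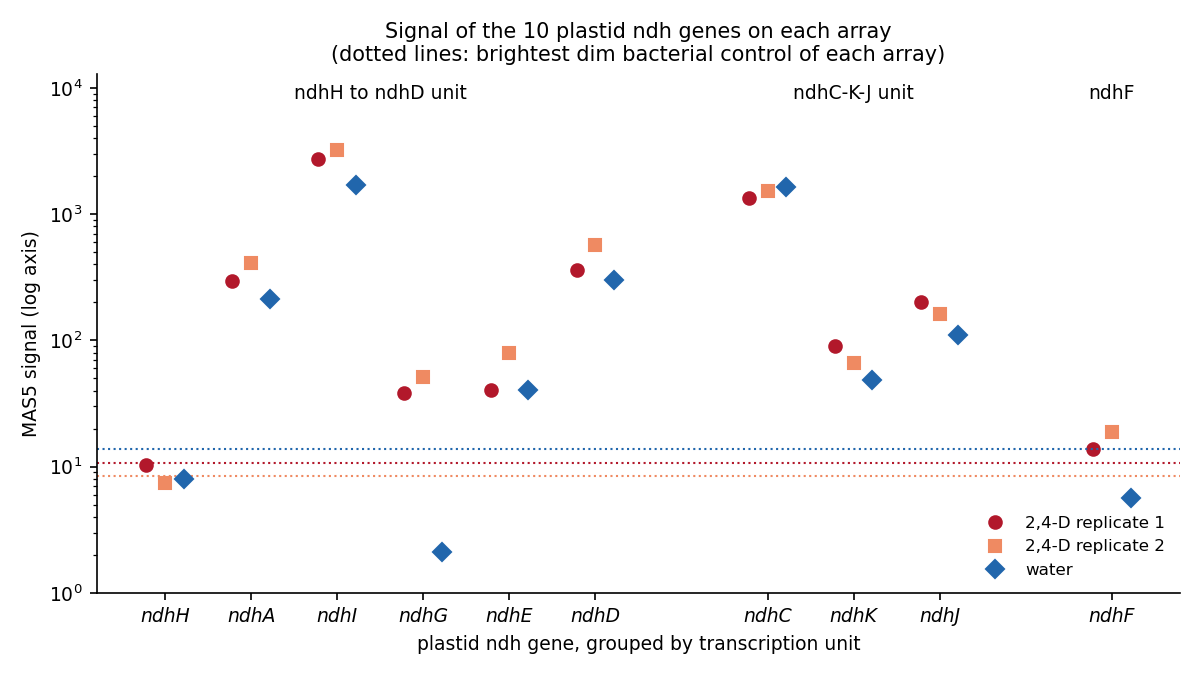
MAS5 signal (log axis) of the 10 ndh genes on 2,4-D replicate 1, 2,4-D replicate 2 and the water array, grouped by transcription unit. Both 2,4-D points lie above the water point for ndhA, ndhI, ndhG, ndhE, ndhD, ndhK, ndhJ and ndhF, both lie below it for ndhC, and all points of ndhH lie under the dotted line of their own array, which marks its brightest dim bacterial control.

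The largest operon holds ndhH, ndhA, ndhI, ndhG, ndhE, psaC and ndhD. The RefSeq gene order places them side by side in this sequence, between rps15 and ccsA. Of its 6 ndh genes, 5 were tested and 4 rose, where 10.8% of all tested probe sets were called higher. Among the genes that rose, ndhG passed the filter through its 2,4-D arrays alone. The median log2 change was 0.66 over all 6.

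ndhA encodes a membrane subunit where the membrane and stromal arms meet. Its signal was 297 and 411 with 2,4-D and 212 with water. Both 2,4-D arrays lay above the water array, as for 38.3% of all tested probe sets. The log2 change was 0.72 ± 0.19 (SE, n = 2 against 1; limma adjusted p = 0.00237), or 1.64-fold. The 2,4-D arrays differed from each other by 0.47 log2 units, which is less than the change.

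ndhI encodes an iron-sulfur subunit of the stromal arm. It had signals of 2747 and 3213 with 2,4-D against 1697 with water. Both 2,4-D arrays lay above water, as for 38.3% of all tested probe sets, and they were 0.23 log2 units apart. The gene rose 1.75-fold (log2 change 0.81 ± 0.28, limma adjusted p = 0.0225).

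ndhG encodes a small membrane subunit. Signals were 38.3 and 51.6 on the 2,4-D arrays and 2.11 on the water array. Both treated signals lay clearly above the brightest dim control of their array, and the water signal lay far under that of its own. The fitted log2 change of 4.40 ± 0.62 (limma adjusted p = 7.42e-11) depends on that unmeasured water signal and is no measure of size. Against the water array's brightest dim control, the geometric mean of 44.4 with 2,4-D was at least 3.21-fold higher, and with dim signals raised to the control the log2 change was 1.68. It was the only tested member at least 2-fold higher on both 2,4-D arrays, 1 of 8, where 3.80% of all tested probe sets were. ndhG passed the filter on mean signal, set at 24.8, through its 2,4-D arrays alone. Leaving it aside, 4 of the 7 other tested members rose, where 10.8% of all tested probe sets were called higher.

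ndhE encodes another small membrane subunit, the relative of ND4L of complex I. Its signals were 40.3 and 79.7 with 2,4-D and 40.1 with water. Replicate 1 was level with water and replicate 2 was about 1 log2 unit above it, at 0.0069 and 0.99. The log2 change of 0.50 ± 0.32 did not pass (limma adjusted p = 0.282). A difference between the 2,4-D arrays as large as the 0.98 log2 units seen here occurred in 1.51% of all tested probe sets.

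psaC, which lies between ndhE and ndhD and encodes the photosystem I subunit that binds the terminal iron-sulfur clusters, had signals of 57.8 and 122 with 2,4-D and 59.5 with water. Replicate 1 was 0.04 log2 units below water, where ndhE was level with it, and replicate 2 was 1.04 above it. The 2,4-D arrays differed by 1.08 log2 units, a gap reached by 1.00% of tested probe sets, and the change of 0.50 ± 0.27 did not pass (limma adjusted p = 0.183).

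ndhD encodes a large membrane subunit of the antiporter-like kind. It gave 362 and 574 with 2,4-D and 301 with water. Both 2,4-D arrays lay above water, as for 38.3% of all tested probe sets. Replicate 1 was only 0.27 log2 units above water and replicate 2 was 0.93 above it. The gene rose 1.51-fold (log2 change 0.60 ± 0.19, limma adjusted p = 0.0141). The 2,4-D arrays were 0.67 log2 units apart, more than the change itself, and 5.86% of tested probe sets had a gap as large. The 3 neighbours ndhE, psaC and ndhD thus had the widest gaps between the 2,4-D arrays in this operon, all with replicate 2 higher. Such gaps were not confined to it. Among plastid genes outside it, replicate 2 minus replicate 1 was 0.87 log2 units at petD, 0.74 at psaJ and -0.80 at ycf3.

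ndhH encodes a stromal subunit of the quinone-reducing part and lies at the other end of the operon. Its signals were 10.3 and 7.46 with 2,4-D and 7.92 with water. None was above the brightest dim control on its own array, so no change was measurable.

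The genes outside this operon on either side are given as neighbours, chosen after their values were seen. rps15, next to ndhH, encodes a ribosomal protein and had 21.0 and 22.9 with 2,4-D and 42.6 with water (log2 change -0.96 ± 0.45, limma adjusted p = 0.115). ccsA, next to ndhD, encodes a factor for attaching haem to c-type cytochromes and rose, with 1449 and 1379 with 2,4-D and 809 with water (0.81 ± 0.23, limma adjusted p = 0.00334, or 0.0583 without the trend). Its 2,4-D arrays were 0.07 log2 units apart, so the gap between replicates at ndhD was not seen there.

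**Figure D2:**
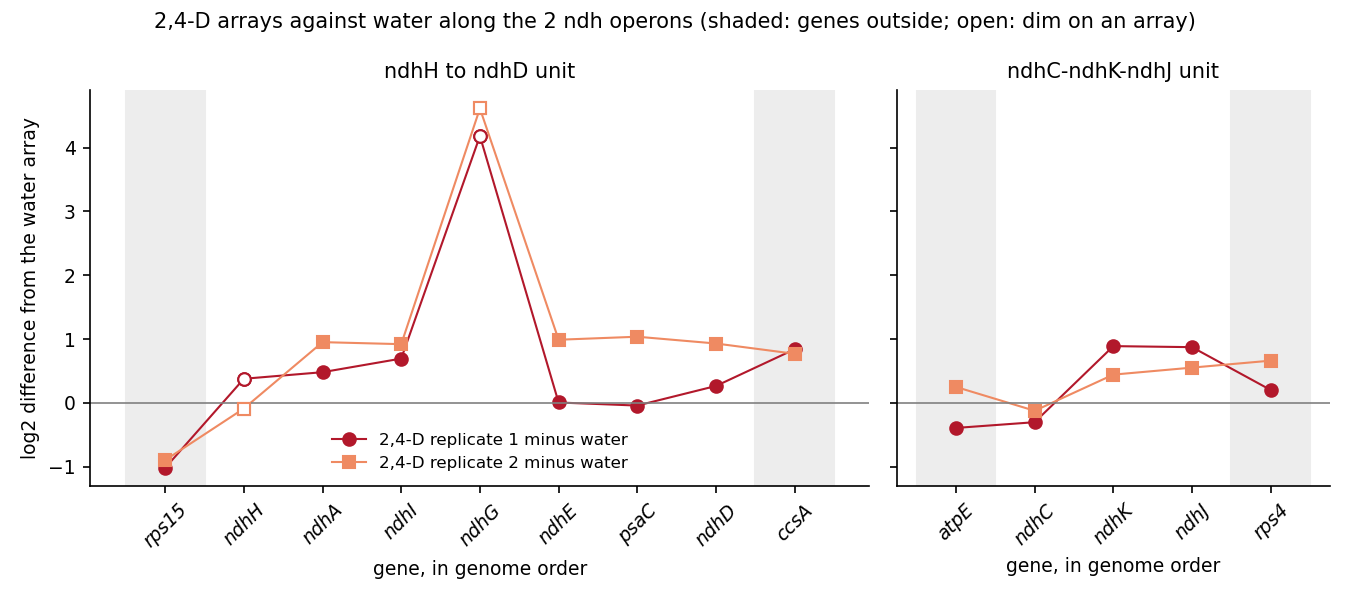
Log2 difference of 2,4-D replicate 1 and 2,4-D replicate 2 from the water array (vertical axis) for genes in genome order along the ndhH to ndhD and ndhC-ndhK-ndhJ operons, with neighbours outside the operons shaded and open points for genes that were dim on at least 1 array. Replicate 1 is near 0 and replicate 2 near 1 at ndhE and psaC, ndhG stands above the other genes on an unmeasured water signal, and ndhC is on the other side of 0 from ndhK and ndhJ.

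The second operon holds ndhC, ndhK and ndhJ, between atpE and rps4. All 3 were tested and 1 rose, where 10.8% of all tested probe sets were called higher. The median log2 change was 0.67.

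ndhC encodes a small membrane subunit. It had signals of 1336 and 1512 with 2,4-D and 1647 with water. Both 2,4-D arrays were below water, by 0.30 and 0.12 log2 units. The log2 change of -0.21 ± 0.24 did not pass (limma adjusted p = 0.582).

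ndhK encodes the stromal subunit related to the complex I subunit that holds the last iron-sulfur cluster before the quinone. Signals were 89.8 and 65.9 with 2,4-D and 48.5 with water. Both 2,4-D arrays were higher than water, as for 38.3% of all tested probe sets. The log2 change was 0.67 ± 0.28 (limma adjusted p = 0.0774). It passed when the arrays were scaled to the same median (adjusted p = 0.0317) and after quantile normalization (adjusted p = 0.0449).

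ndhJ encodes a stromal subunit that packs against these. Signals of 201 and 161 were measured with 2,4-D and 110 with water. Both 2,4-D arrays lay above water, as for 38.3% of all tested probe sets. The gene rose 1.64-fold (log2 change 0.71 ± 0.21, limma adjusted p = 0.00672). In ndhK and ndhJ replicate 1 was the higher of the 2,4-D arrays, by 0.45 and 0.32 log2 units. In ndhC replicate 2 was the higher, by 0.18 log2 units, as for every tested ndh gene of the ndhH to ndhD operon. The difference in change between ndhC and the other two genes of its operon was not tested.

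atpE and rps4 flank this operon. atpE, for a subunit of the ATP synthase, had 4027 and 6286 with 2,4-D and 5284 with water, so that its 2,4-D arrays fell on both sides of the water array. rps4, for a ribosomal protein, had 1200 and 1652 with 2,4-D and 1044 with water, with a log2 change of 0.43 ± 0.23 that did not pass (limma adjusted p = 0.174).

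ndhF, which encodes a large antiporter-like subunit at the end of the membrane arm, is read on its own and lies between ycf1 and rpl32. Its signals were 13.8 and 18.8 with 2,4-D and 5.60 with water. Both treated signals were above the brightest dim control of their array and the water signal was not. Against the water array's brightest dim control the geometric mean of 16.1 was at least 1.16-fold higher. Its mean signal of 12.7 was under the filter, and when all probe sets were tested it did not pass (limma adjusted p = 0.301). The neighbouring ribosomal protein gene rpl32 fell, with 898 and 736 with 2,4-D and 1208 with water (log2 change -0.57 ± 0.21, limma adjusted p = 0.0391). That call ended with arrays scaled to the same median (adjusted p = 0.112), without the filter (0.140) and without the trend (0.170).

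Grouped by place in the complex, 3 of the 5 tested genes for membrane subunits rose (ndhA, ndhD and ndhG, the last of which passed the filter through its 2,4-D arrays alone) and 2 of the 3 tested genes for stromal subunits rose (ndhI and ndhJ), where 10.8% of all tested probe sets were called higher. The arms were not tested against each other. The median log2 change was 0.66 over all 6 membrane genes and 0.69 over all 4 stromal genes.

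Across the 10 members, 8 had a higher signal on both 2,4-D arrays than on the water array, where 32.5% of all 22746 probe sets did. Among the 8, ndhE was level with water on replicate 1, and ndhG and ndhF had water signals under the dim controls. Of the others, 1 (ndhC) had a lower signal on both, and 1 (ndhH) went both ways. Of the 8 tested members, 7 were higher on both and 1 lower on both. Of all tested probe sets, 38.3% were higher on both and 44.0% lower on both. The 7 include ndhG, which passed the filter through its 2,4-D arrays alone. The median log2 difference from water over the 10 members was 0.59 on replicate 1 and 0.93 on replicate 2.

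Other plastid-encoded genes moved in both directions. For the counts that follow, 10.8% of all tested probe sets were called higher and 10.5% lower in the main fit. Of 31 tested genes for photosystems, cytochrome b6f, ATP synthase and rbcL, 8 rose and 4 fell, with a median log2 change of 0.43 over all 33. The highest was psbB, a photosystem II core antenna gene, with 177 and 176 with 2,4-D and 46.4 with water (log2 change 1.92). The lowest was psbT, a small photosystem II subunit gene, with 23.0 and 35.7 with 2,4-D and 88.9 with water (-1.63). Of 25 tested genes for plastid gene expression and other functions, 7 rose and 4 fell, with a median of 0.33 over all 26. There matK, an intron maturase gene, was 2.46-fold higher, with 987 and 1089 with 2,4-D and 421 with water, the largest rise, and rps15 was lowest. Without the intensity trend 4 photosystem, cytochrome and ATP synthase genes were higher and 2 lower, and 3 of the other plastid genes were higher and 1 lower. Of all 13648 tested probe sets, 834 (6.11%) were then higher and 839 lower. With arrays scaled to the same median the counts were 12 higher and 2 lower in the first group and 8 higher and 1 lower in the second. Over all 13648 tested probe sets that scaling gave 2031 (14.9%) higher and 991 lower. A signal higher on replicate 2 than on replicate 1 was found for 7 of the 10 ndh genes and 45 of the 59 other plastid genes, against 48.7% of all 22746 probe sets. The ndh genes were not tested against the other plastid genes as groups, and no difference between them is claimed.

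**Figure D3:**
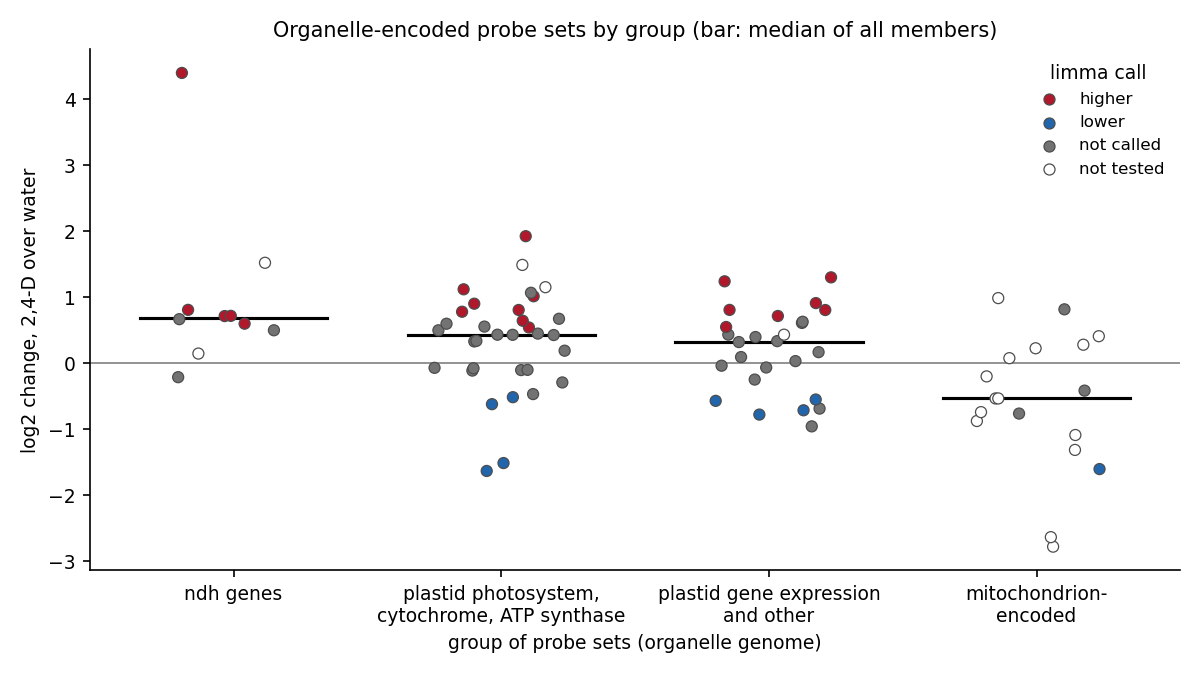
Log2 change (2,4-D over water, vertical axis) of organelle-encoded probe sets by group, with points coloured by their limma call and a bar at the median of all members. The bar lies at 0.69 for the ndh genes, 0.43 for the photosystem, cytochrome and ATP synthase genes, 0.33 for the other plastid genes and -0.53 for the mitochondrion-encoded probe sets, and the topmost ndh point, ndhG, rests on a water signal under the dim controls.

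The mitochondrial nad genes encode subunits of complex I, the respiratory relative of NDH. They were carried by 15 probe sets, of which 7 matched nad1 and 3 passed the filter. With limma 0 of the 3 were higher and 1 was lower, where 10.8% of all tested probe sets were called higher and 10.5% lower. The counts at an unadjusted p under 0.05 were also 0 and 1, against shares of 15.8% and 16.8%. The one that fell was a nad1 probe set with 7.74 and 26.7 with 2,4-D and 43.8 with water, the first of which was dim, and its call ended without the filter (adjusted p = 0.211) and without the trend (adjusted p = 0.0940). Over all 18 mitochondrion-encoded probe sets the median log2 change was -0.53. Most were dim: 7 of the 18 were above the brightest dim control on every array. The lowest change was that of another nad1 probe set, with 6.17 and 1.33 with 2,4-D and 19.7 with water, and the highest that of a nad5 probe set, with 13.0 and 11.6 with 2,4-D and 6.20 with water. Both were too dim to be tested.

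Nuclear genes of the NDH pathway were drawn from lists of 44 genes, of which 12 could be named on the array and 9 were tested. With limma 0 rose and 1 fell, and at an unadjusted p under 0.05 the counts were 0 and 2. Among all tested probe sets 10.8% were called higher and 10.5% lower, or 15.8% and 16.8% at an unadjusted p under 0.05. Of the 18 listed subunit genes, 4 were named and all were tested, and 0 passed in either direction, also at an unadjusted p under 0.05. NdhS, for the subunit that binds ferredoxin, had 540 and 758 with 2,4-D and 614 with water. NdhN, for a stromal subunit, had 518 and 527 with 2,4-D and 426 with water (log2 change 0.30 ± 0.20, limma adjusted p = 0.295). NdhL, for a membrane-bound subunit, had 447 and 549 with 2,4-D and 574 with water. AT2G04039, which encodes NdhV, had 526 and 560 with 2,4-D and 607 with water. The nuclear subunit genes that could be named therefore had changes between -0.21 and 0.30 on the log2 scale.

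Of 14 listed genes for assembly, RNA processing and editing, 4 of 6 named ones were tested. Of these 0 rose and 1 fell, where 10.8% of all tested probe sets were called higher and 10.5% lower. CRR42, needed for the complex to accumulate, fell, with 103 and 97.7 with 2,4-D and 178 with water (log2 change -0.83 ± 0.23, limma adjusted p = 0.00262, or 0.0538 without the trend). The editing factor genes CRR21 (0.43 ± 0.28), CRR28 (0.39 ± 0.45) and OTP84 (0.12 ± 0.48) did not pass; the first acts on ndhD transcripts, the second on ndhB and ndhD, and the third on ndhF among others. CRR22, another editing factor gene for ndhB and ndhD, was too dim on average to be tested. Its signals were 19.8 and 17.7 with 2,4-D and 1.42 with water, at least 1.35-fold higher against the water array's brightest dim control. PGRL1B, of the antimycin-sensitive route of cyclic electron flow, had 97.9 and 99.8 with 2,4-D and 139 with water and did not pass (-0.50 ± 0.23, limma adjusted p = 0.115). Of the 8 listed genes for plastid sigma factors and organelle RNA polymerases, 1 was named, the polymerase gene AT5G15700, and it was at or below the brightest dim control on every array.

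Green tissue was read from 3 named nuclear photosynthesis genes of 23 listed, LHCB4.1, LHCB4.2 and RCA. All were bright on every array, with a summed signal of 13273 and 20422 with 2,4-D and 19971 with water. With limma 0 of the 3 passed, also at an unadjusted p under 0.05, and their median log2 change was -0.25. Of all tested probe sets 10.8% were called higher and 10.5% lower, or 15.8% and 16.8% at an unadjusted p under 0.05. Like ndhE and psaC, their sum was higher on replicate 2 than on replicate 1. On replicate 1 the sum lay under water. There psaC was also under water, at 57.8 against 59.5, and ndhE was level with it. Of the 9 root markers, 3 were named, with a summed signal of 3008 and 2458 with 2,4-D and 2321 with water, nearly all of it PYK10. The other two are root-hair expansin genes, which were under the filter and had less signal on both 2,4-D arrays than on the water array. EXPA7 had 15.1 and 15.3 with 2,4-D and 37.0 with water, and EXPA18 had 7.98 and 3.55 with 2,4-D, both under the dim controls, and 43.8 with water. The part of tissue makeup in the ndh results was not tested.

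By Euclidean distance between log2 differences from water on the 2,4-D arrays, the organelle-encoded genes most like the mean of each unit were sought among 77 other probe sets. They were atpH, atpI and accD for the ndhH to ndhD operon (distances 0.12, 0.18 and 0.19), whose mean is raised by ndhG. With dim signals raised to the controls they were petA, psbM and psbC (0.03, 0.04 and 0.12). For the ndhC operon, whose mean lies between ndhC and the other members, they were nad6, rps3 and cox2 (0.05, 0.10 and 0.16). Of these, nad6 was dim on the water array. For ndhF, whose water signal was under the dim controls, they were petG, matK and accD (0.31, 0.38 and 0.46), and with dim signals raised they were psbA, psaA and rpoB (0.18, 0.22 and 0.24). Besides nad6, the genes atpI, petG and rpoB were dim on the water array, and these genes and cox2 were under the filter. This likeness covers 2 arrays that share 1 water array and is a description only.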

How the data were processed

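RNA from 3 samples, 2 with 2,4-D and 1 with water, was measured on 3 arrays. The deposited values are linear-scale intensities; per the submitters' processing notes the authors used MAS5, with the version and scaling target unstated. The mean of the middle 96% of probe sets was 100 on each array. Detection calls were not used here.

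Probe sets were named from the platform's probe-to-gene table and from RefSeq's gene table (assembly TAIR10.1), which served for names and gene order only. Of 22746 probe sets, 13513 had 1 symbol, 503 several and 8730 were unlisted. Mitochondrial genes whose IDs were not in RefSeq were matched by symbol. No sequences or coordinates are given.

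The log2 of each signal was used as it stood, with no other normalization. Probe sets with a mean signal at or above the 40th percentile (24.8) were fitted in limma 3.58.1 (R 4.3.3) by lmFit and eBayes with an intensity trend. P-values were Benjamini-Hochberg adjusted over all 13648, at a threshold of 0.05. Only the 2,4-D pair gave a residual degree of freedom, 1 in all, and the water array is taken to vary as that pair does. The prior degrees of freedom were infinite, so each variance was read from the trend. Each SE therefore reflects the trend and not the probe set's own 2,4-D pair. The number of arrays limits the precision. The script was tested on simulated data.

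The members, gene lists and tests were chosen with earlier results of these data known. Named genes were all members, psaC, list members that passed and up to 4 others a list with the largest change, the highest and lowest of each other organelle group, and the 3 nearest genes per unit. The genes flanking the units and the dim root markers were added after their values were seen. The alternatives were other scalings, an offset of 16, other filters, no trend, each 2,4-D replicate left out and, added after seeing the data, dim signals raised to the dim controls.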

Additional observations from a re-analysis of the deposited data

How the results depend on the processing

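No paired analysis was possible because the groups share only 1 replicate number. Without the filter on low signal, 964 of all probe sets were higher and 710 lower; without the intensity trend, 834 and 839. Under each of these settings 1 ndh gene was called higher, ndhG, and the unchanged log2 changes of the others no longer passed: ndhA 0.72 (limma adjusted p = 0.0560 without the filter and 0.119 without the trend), ndhD 0.60 (0.165 and 0.229), ndhI 0.81 (0.133 and 0.0638) and ndhJ 0.71 (0.0501 and 0.101). Without the filter more probe sets are tested and the prior degrees of freedom fell to 11.2; without the trend they were 8.38. ndhK was called at 0.78 with arrays scaled to the same median and at 0.73 after quantile normalization. The stricter filter, at the 60th percentile, left 6 members, of which 4 were called higher, where 12.7% of all tested probe sets were. ndhG and ndhE were then not tested. The change of ndhF, 1.52 in the signals as deposited, was 1.89 after quantile normalization, 0.58 with the offset and 0.22 with dim signals raised. That of ndhH, 0.15, was 0.54 after quantile normalization and -0.55 with dim signals raised. Both genes have signals under the dim controls. With dim signals raised, the value of ndhH is set by the controls alone, as its signals lay under them on every array. That of ndhF then rests on the control level of the water array. The cause of the shifts under the other settings was not tested further. Of the other plastid genes, the 8 and 4 photosystem, cytochrome and ATP synthase genes called higher and lower became 5 and 2 without the filter and 4 and 2 without the trend, and 12 and 2 with arrays scaled to the same median. Over all tested probe sets that scaling gave 2031 higher and 991 lower. The 7 and 4 genes of the remaining plastid group became 3 and 1 without the trend and 8 and 1 with that scaling, and 1 was lower without the filter and 2 with the stricter filter. Of mitochondrion-encoded probe sets 0 were higher and 1 lower; 1 was higher with that scaling and after quantile normalization, and 0 were lower with the stricter filter, without a filter and without the trend. With 1 array left out of the 2,4-D pair no degree of freedom remains, so the values of single arrays have no test; over the 10 members their medians were 0.59 and 0.93. The other alternatives kept the direction and the call of each tested member and the count of ndh genes within 1.5 times.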
